A study of Homo sapiens with 12 samples.

Results

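The genes described here are the enzymes that make sterols and fatty acids, together with the regulators and transporters that set how much of them a cell makes. They are 29 genes of the 60617 in the count table, chosen by name as members of these pathways and matched to their Ensembl identifiers. The rule that picks them uses no measured value. All 29 passed the filter on low counts, and their raw counts ran from 204 to 124639 per library. The cells were A549, which derive from an adenocarcinoma of the human lung, and each of 4 groups had 3 libraries. YTHDF1 KO cells carried a knockout of YTHDF1, a reader of methylated adenosine in RNA, and siARID1A cells had ARID1A, a subunit of the SWI/SNF chromatin remodeller, silenced by small interfering RNA. The combined group carried both changes, and WT cells carried neither. Titles call the YTHDF1 change a knockdown and the genotype labels call it a knockout. The labels do not say whether the knockout cells are 1 clone or a pool, and they name no control small interfering RNA. Titles call the libraries of a group biological replicates and do not say whether these are separate cultures, so p-values measure the spread between those replicates.

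Sterol synthesis starts from acetyl-CoA and runs through mevalonate and farnesyl diphosphate to squalene, which is closed into a ring and then trimmed to cholesterol. Fatty acid synthesis draws on the same acetyl-CoA, which ATP citrate lyase makes in the cytosol. SREBP transcription factors switch on both pathways. They are held in the endoplasmic reticulum by SCAP and the INSIG proteins while sterols are plentiful, and are released to the nucleus when sterols run low. LXR receptors act on the other side, turning on cholesterol export through ABCA1 when sterols are in excess. Alveolar type II cells, the lineage that A549 is often used to model, make large amounts of lipid for surfactant.

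Values are CPM (counts scaled to a common library size with TMM factors) and log2 fold changes, and a gene counts as called higher or lower at an adjusted p under 0.05. Library totals ran from 30220717 to 45042635 counts. YTHDF1 stood at 24.9 ± 2.08 CPM in YTHDF1 KO, 97.9 ± 4.69 CPM in siARID1A, 30.9 ± 1.11 CPM in the combined group and 88.2 ± 2.57 CPM in WT (SD, n = 3 each). For ARID1A the levels were 161 ± 11.96, 42.5 ± 2.12, 54.2 ± 6.51 and 164 ± 14.1 CPM in the same order of groups. WT replicate 2 stood apart, with 4.85% of its counts from mitochondrial genes against 6.81% to 8.23% in the other 11 libraries. Counts below are therefore also given without it. The epithelial markers KRT8, KRT18, KRT7, EPCAM and CDH1 were detected in all 12 libraries, and their summed level was 3534 to 3803 CPM in YTHDF1 KO, 6904 to 8352 in siARID1A, 3894 to 4201 in the combined group and 7791 to 9949 in WT. Nearly all of that sum was keratin. CDH1 stood at 41.6 ± 2.62, 171 ± 15.4, 109 ± 1.14 and 104 ± 2.42 CPM in the same order of groups. EPCAM was low, at 0.785 ± 0.448, 8.14 ± 1.75, 1.66 ± 0.177 and 3.52 ± 0.388 CPM. Both were highest in siARID1A. The 8 markers of blood, endothelial and stromal cells summed to 5.73 to 6.57 CPM in YTHDF1 KO, 0.650 to 0.846 in siARID1A, 5.77 to 7.48 in the combined group and 0.471 to 1.02 in WT. Most of that sum was the collagen COL3A1 in YTHDF1 KO and the combined group, and CD3E and CDH5 were at 0 in 11 of the 12 libraries each. The part of these shifts in the results below was not tested.

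Promoter windows of 250 bases before to 50 after each start were found for 25 of the 29 genes in a RefSeq table (GRCh38.p14), 34 windows in all because 7 genes have several starts. Windows of ACAT2, FDFT1, SQLE and FASN are not shown. The box CCAAT, which the factor NF-Y binds and which often lies near SREBP sites, was present on either strand in 23 of the 34 windows (67.6%), against 34.6% of 35097 promoters of the same length. Windows of 1 gene can overlap and hold the same boxes, as those of ACLY and SC5D did. Counted by gene it was present in 19 of the 25 (76.0%), where several windows give more chances of a match. The core of the sterol regulatory element, TCACNCCAC, was present in 1 of the 34 (2.94%, against 1.13% of all), that of SREBF2. The motifs did not overlap each other there. The windows below belong to the gene with both motifs and to 4 genes on which the results turn, with matches in capitals, and they are read along the gene from 5′ to 3′. SREBF2 lies at chr22:41832855-41833154, plus strand, STARD4 at chr5:111512486-111512785, minus strand, SCD at chr10:100346983-100347282, plus strand, TM7SF2 at chr11:65111622-65111921, plus strand and ABCA1 at chr9:104928106-104928405, minus strand. ABCA1 had no match to either motif, which says only that these letters are not in this window.
SREBF2: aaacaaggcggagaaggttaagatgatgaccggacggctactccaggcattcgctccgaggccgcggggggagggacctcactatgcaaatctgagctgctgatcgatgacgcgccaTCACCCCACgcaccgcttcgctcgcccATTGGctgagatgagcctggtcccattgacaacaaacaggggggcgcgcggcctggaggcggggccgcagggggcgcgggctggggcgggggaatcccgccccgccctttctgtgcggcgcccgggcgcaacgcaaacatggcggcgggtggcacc
STARD4: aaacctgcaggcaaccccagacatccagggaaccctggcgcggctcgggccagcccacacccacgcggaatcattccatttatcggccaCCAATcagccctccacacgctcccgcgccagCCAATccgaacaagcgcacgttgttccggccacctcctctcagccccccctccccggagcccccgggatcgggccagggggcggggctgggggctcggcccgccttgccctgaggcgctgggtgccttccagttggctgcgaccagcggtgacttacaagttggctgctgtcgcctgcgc
SCD: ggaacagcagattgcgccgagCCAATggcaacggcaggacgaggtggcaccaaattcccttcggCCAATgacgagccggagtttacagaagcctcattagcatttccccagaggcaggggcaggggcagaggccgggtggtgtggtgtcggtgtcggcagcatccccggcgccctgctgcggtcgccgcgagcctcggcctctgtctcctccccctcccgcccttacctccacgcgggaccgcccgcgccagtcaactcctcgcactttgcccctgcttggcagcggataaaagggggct
TM7SF2: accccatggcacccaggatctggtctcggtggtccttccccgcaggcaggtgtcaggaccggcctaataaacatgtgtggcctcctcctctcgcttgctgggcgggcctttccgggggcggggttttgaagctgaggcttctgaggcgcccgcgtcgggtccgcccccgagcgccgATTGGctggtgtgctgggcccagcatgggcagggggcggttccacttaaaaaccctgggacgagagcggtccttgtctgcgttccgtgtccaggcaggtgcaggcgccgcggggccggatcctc
ABCA1: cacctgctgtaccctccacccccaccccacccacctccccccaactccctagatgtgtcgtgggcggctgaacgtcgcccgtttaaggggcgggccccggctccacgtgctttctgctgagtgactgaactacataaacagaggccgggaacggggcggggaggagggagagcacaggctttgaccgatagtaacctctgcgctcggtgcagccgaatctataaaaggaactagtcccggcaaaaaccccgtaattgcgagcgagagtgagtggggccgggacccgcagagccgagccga

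Per kilobase of annotated exon, the most abundant transcripts in WT were those of 3 of the 4 fatty acid synthesis genes, while ACACA, the carboxylase that makes malonyl-CoA, stood at 15.8 ± 0.913 CPM per kilobase, below SQLE, DHCR7 and both SREBP genes. ACLY, the citrate lyase, stood at 343 ± 26.7 CPM per kilobase in WT, SCD, which puts the first double bond into saturated fatty acids, at 279 ± 11.5, and the fatty acid synthase FASN at 100.4 ± 14.6 (SD, n = 3 each). Among sterol enzymes, the squalene epoxidase SQLE (42.8 ± 2.58) and the final reductase DHCR7 (41.3 ± 2.68) led and did not differ beyond their spread. Both SREBP genes were close to them, SREBF1 at 39.8 ± 5.40 and SREBF2 at 38.8 ± 1.27 CPM per kilobase. The lowest were CYP51A1 (3.13 ± 0.535), ABCA1 (2.12 ± 0.0822) and TM7SF2 (1.91 ± 0.302), of which ABCA1 and TM7SF2 overlap within their spread. The level and rank of CYP51A1 are less certain, as 79.4% of its exon bases are shared with another annotated gene on the same strand. The order at the top differed by group. SCD was above ACLY in YTHDF1 KO (383 ± 9.83 against 236 ± 3.81 CPM per kilobase) and in the combined group (503 ± 48.1 against 167 ± 14.7). In siARID1A ACLY stood at 243 ± 21.7 and SCD at 222 ± 29.9 CPM per kilobase, within their spread.

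**Figure D1:**
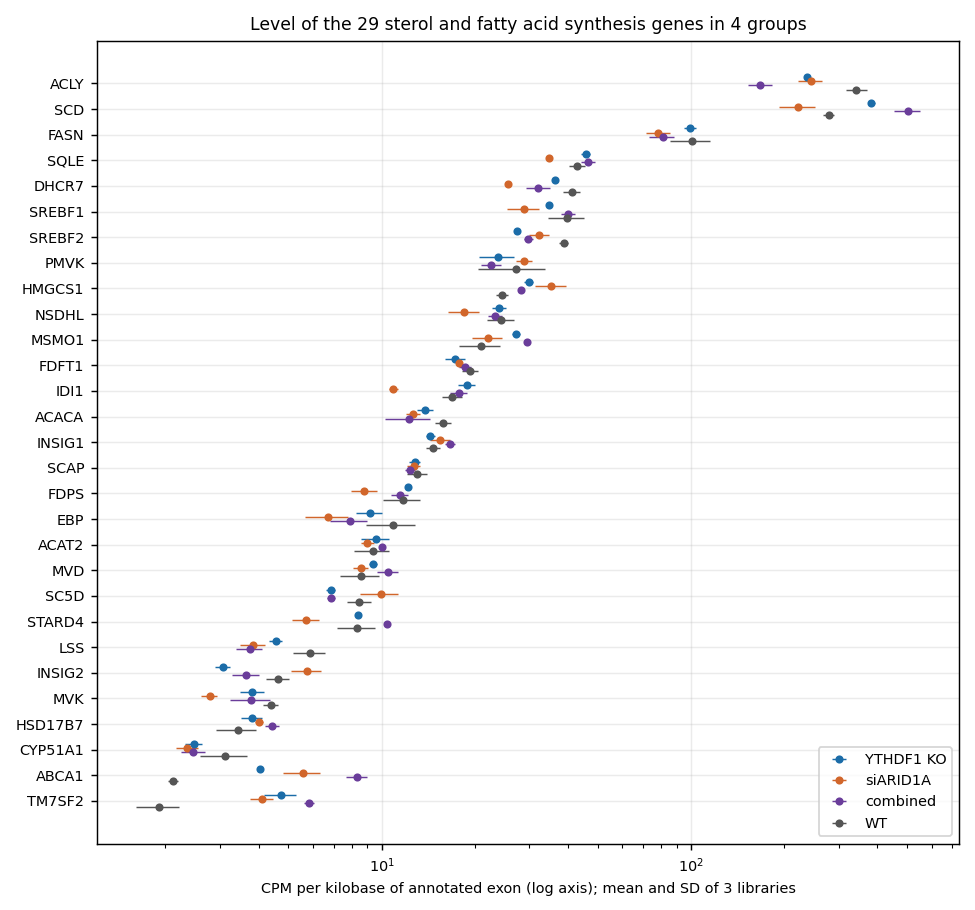
Mean level and SD (n = 3) of each of the 29 genes in CPM per kilobase of annotated exon, on a log axis, with the 4 groups in colour and genes ordered by their WT level. ABCA1 and TM7SF2, at the bottom, have their WT point left of the other 3 groups, and ACLY, at the top, has its WT point to the right.

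The comparison of siARID1A with WT shows the change with siARID1A in cells without the knockout. No control small interfering RNA is named, so effects of the delivery of such RNA cannot be told apart from silencing of ARID1A. Of the 29 genes 21 were called, against 45.2% of all genes tested, and most called genes were lower: 16 of the 29 fell and 5 rose, so 55.2% were called lower against a background of 23.0% of all genes tested, and 17.2% higher against 22.1%. The median log2 fold change was -0.30 over the 29 and -0.011 over the 18524 genes tested. All 4 fatty acid synthesis genes fell, as did 9 of the 18 sterol enzymes, while 3 of those 18 rose. The largest falls were of the sterol isomerase EBP (-0.69), DHCR7 (-0.69), the mevalonate kinase MVK (-0.66), IDI1 (-0.63) and the lanosterol synthase LSS (-0.61), and the largest rises were of ABCA1 (1.39) and TM7SF2 (1.10). In bulk RNA, fewer cells with a transcript and less of it per cell cannot be told apart. Without WT replicate 2, 3 rose and 16 fell. The number that rose was also 3 without siARID1A replicate 3 and without WT replicate 1.

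The comparison for siARID1A in knockout cells, the combined group against YTHDF1 KO, gave fewer calls. Of the 29, 7 were called, where 23.4% of all genes tested were. Of these, 4 rose (ABCA1, SCD, STARD4 and INSIG1) and 3 fell (ACLY, FASN and LSS), 13.8% higher against a background of 12.5% and 10.3% lower against 10.9%. Of the 18 sterol enzymes only LSS was called, and their median was -0.0037, against -0.21 for siARID1A against WT. With library totals in place of TMM scaling 5 rose and 1 fell. The number called was 4, of which 3 rose and 1 fell, when any one of YTHDF1 KO replicates 1, 2 and 3 or combined replicate 1 was left out. Without WT replicate 2, which enters this comparison only through the estimate of the spread and the scaling, 6 rose and 4 fell.

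Whether the change with siARID1A differed between the 2 backgrounds was tested directly by the interaction, the change in knockout cells minus the change in WT cells. It was called for 11 of the 29 genes and for 17.1% of all genes tested. It was positive for 8 (27.6%, against a background of 8.87% of all genes tested) and negative for 3 (10.3%, against 8.22%). The positive group held STARD4 (0.86), SCD (0.72), SREBF1 (0.67), MVK (0.65), IDI1 (0.55), DHCR7 (0.50), SREBF2 (0.39) and SQLE (0.32), all of which were called lower in siARID1A than in WT. The negative group held TM7SF2 (-0.80), HMGCS1 (-0.60) and ABCA1 (-0.35), all of which were called higher in siARID1A than in WT. The interaction holds the change of siARID1A against WT with its sign reversed, so this match of signs is partly built in. Without WT replicate 2, 11 were positive and 3 negative, the added genes being FDPS, NSDHL and EBP. ACLY lay at -0.0027 (adjusted p = 0.993), with a fall of -0.50 in knockout cells and -0.49 in WT cells. Genes of chromosome 9 had medians of -0.36 in YTHDF1 KO and -0.41 in siARID1A, each against WT. Their medians were 0.0058 in the combined group against YTHDF1 KO and 0.39 in the interaction. A difference of the WT cells from the other groups cannot be told apart from the change with siARID1A here. Its part in the counts of siARID1A against WT and of the interaction was not tested.

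**Figure D2:**
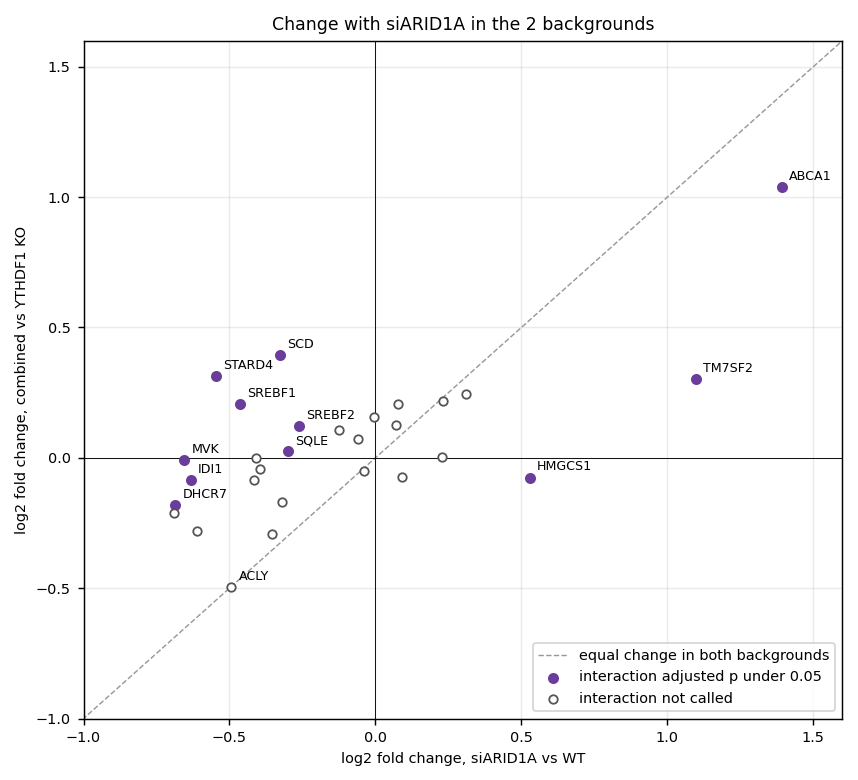
Log2 fold change of each of the 29 genes with siARID1A in knockout cells (combined against YTHDF1 KO, vertical) and in unmodified cells (siARID1A against WT, horizontal), with filled points where the interaction was called. The 8 filled points left of 0 lie above the dashed line of equal change, the 3 filled points at the right lie below it, and ACLY lies on it. The interaction holds the horizontal value with its sign reversed, so this placing is partly built in.

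YTHDF1 KO against WT gave a mixed picture. A difference was called for 12 of the 29 genes and for 40.4% of all genes tested. Of the 29, 5 rose (TM7SF2, ABCA1, SCD, MSMO1 and HMGCS1) and 7 fell (INSIG2, ACLY, SREBF2, LSS, CYP51A1, SC5D and DHCR7). The shares were 17.2% higher against a background of 19.6% and 24.1% lower against 20.8%, both near the background, and the median was -0.03, against -0.012 over all genes tested. With library totals the split was 8 higher and 4 lower. Without WT replicate 2, 6 rose and 9 fell, PMVK and EBP joining the falls and IDI1 the rises.

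In the combined group against WT 19 of the 29 were called, against 51.5% of all genes tested. Of the 29, 9 rose and 10 fell, 31.0% against a background of 25.6% and 34.5% against 25.9%. The largest changes were the rises of ABCA1 (1.98), TM7SF2 (1.61) and SCD (0.85) and the falls of ACLY (-1.03) and LSS (-0.65). Scaling by library totals moved the median of all genes in this comparison to 0.13, and the split was then 12 higher and 6 lower. Without WT replicate 2 it was 9 and 11. Against siARID1A 17 were called (background 35.4%), and the combined group was higher in 13 (44.8%, background 18.2%) and lower in 4 (13.8%, background 17.2%), with a median of 0.16 against 0.015 over all genes tested. The 13 were 9 sterol enzymes, SREBF1, STARD4, ABCA1 and SCD, and the 4 were HMGCS1, SC5D, INSIG2 and ACLY. The comparisons with WT share the WT libraries, and those of the combined group share its libraries. The falls in siARID1A against WT, the rises over siARID1A and the positive interactions share the siARID1A libraries. Their counts are therefore not independent of each other.

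**Figure D3:**
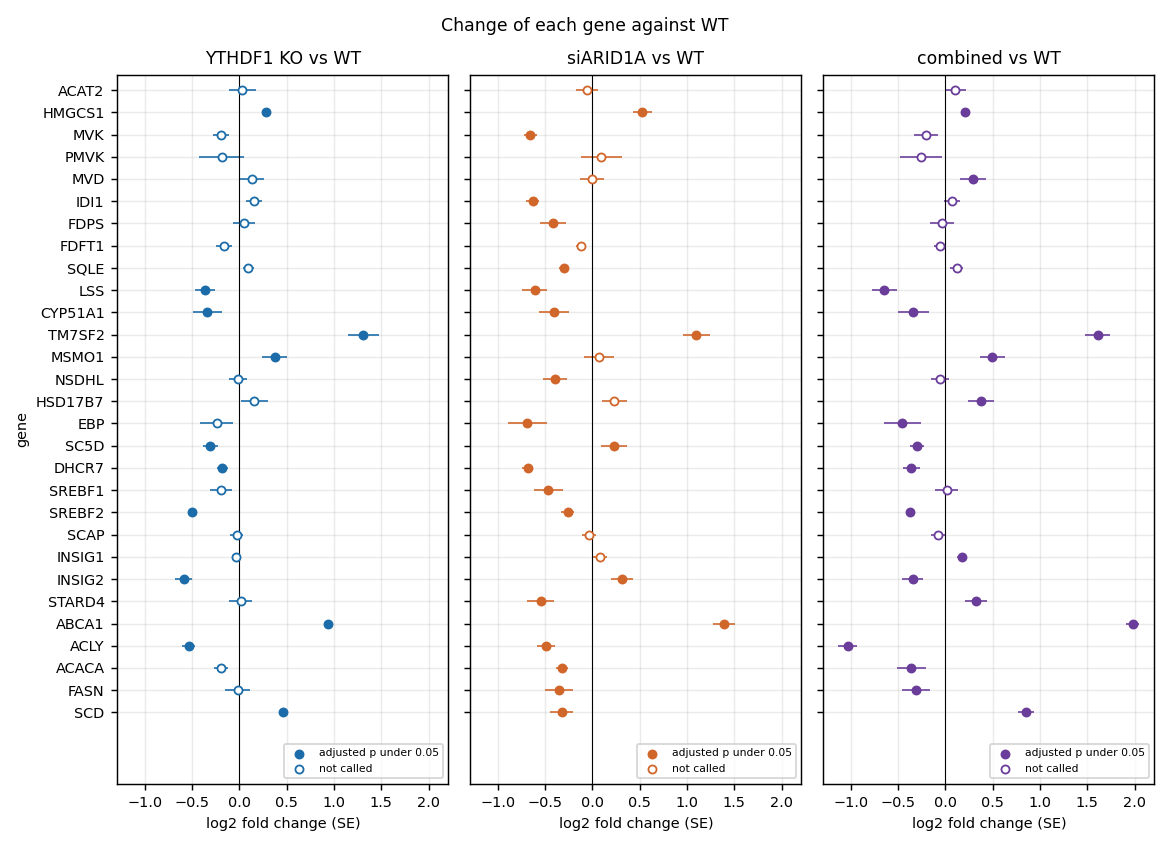
Log2 fold change against WT of each of the 29 genes in YTHDF1 KO, siARID1A and the combined group, with bars of 1 SE and filled points where the adjusted p was under 0.05. In the middle panel 16 filled points lie left of 0, against 7 in the left panel and 10 in the right panel.

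Among the 7 early genes, which carry acetyl-CoA to farnesyl diphosphate, HMGCS1 rose in siARID1A against WT while MVK, IDI1 and FDPS fell. HMGCS1 (ENSG00000112972, chromosome 5, 43289395 to 43313512, GRCh38), the synthase that commits acetoacetyl-CoA to the pathway, had 135, 141 and 144 CPM in YTHDF1 KO, 153, 187 and 159 CPM in siARID1A, 130.4, 134 and 136 CPM in the combined group and 109.7, 118 and 118 CPM in WT. Every library of the 3 changed groups was above every WT library, and the siARID1A libraries were highest. It rose in siARID1A against WT (0.53, SE 0.0974, adjusted p = 1.93e-06) and in YTHDF1 KO against WT (0.28, SE 0.0447, adjusted p = 0.00276). In the combined group the rise over WT was smaller (0.21, adjusted p = 0.0195). That call did not hold without combined replicate 3 or WT replicate 1 or with scaling without chromosomes 2 and 9, and its adjusted p ran from 0.000618 to 0.0798 over the alternatives.

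MVK (ENSG00000110921, chromosome 12, 109573255 to 109598117), which phosphorylates mevalonate, had 22.8, 27.1 and 24.4 CPM in YTHDF1 KO, 16.8, 18.9 and 18.3 CPM in siARID1A, 21.4, 28.4 and 24.0 CPM in the combined group and 30.1, 27.5 and 27.5 CPM in WT. The siARID1A libraries lay below all others, and the combined libraries overlapped both YTHDF1 KO and WT. MVK fell in siARID1A against WT (-0.66, SE 0.0658, adjusted p = 1.23e-05) and was higher in the combined group than in siARID1A (0.45, SE 0.129, adjusted p = 0.00115). IDI1 (ENSG00000067064, chromosome 10, 1039152 to 1049170), which isomerises the isoprene unit, had 79.7, 87.9 and 77.8 CPM in YTHDF1 KO, 46.5, 49.2 and 46.6 CPM in siARID1A, 72.1, 77.5 and 81.5 CPM in the combined group and 67.2, 77.7 and 75.7 CPM in WT. Here too the siARID1A libraries stood below every other library. IDI1 fell in siARID1A against WT (-0.63, SE 0.0694, adjusted p = 2.11e-07), rose in the combined group over siARID1A (0.70, SE 0.0576, adjusted p = 4.84e-08) and lay at 0.067, adjusted p = 0.48 in the combined group against WT.

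FDPS, the farnesyl diphosphate synthase, was also lowest in siARID1A, with a mean of 45.1 ± 0.440 CPM in YTHDF1 KO, 32.7 ± 3.16 in siARID1A, 42.5 ± 2.61 in the combined group and 43.6 ± 6.03 in WT (SD, n = 3 each). It fell in siARID1A against WT (-0.42, adjusted p = 0.000676), and its interaction was not called (0.33, adjusted p = 0.0866) with all 12 libraries. The decarboxylase MVD rose in the combined group over WT (0.29, adjusted p = 0.00977) and over siARID1A (0.29, adjusted p = 0.0131). The first of these calls did not hold without combined replicate 2 or WT replicate 3, and its adjusted p ran from 0.000304 to 0.0781 over the alternatives. The second did not hold without siARID1A replicate 3 or combined replicate 2, and its adjusted p ran from 0.00205 to 0.0965 over the alternatives. The acetyl-CoA acetyltransferase ACAT2 and the phosphomevalonate kinase PMVK were called in no comparison. FDPS has 8 named pseudogenes in GENCODE 29, and ACAT2 shares exon bases with TCP1 and SOD2 on the other strand, so their counts are less certain. Of the 29 genes, 13 share exon bases with another annotated gene and 4 have a named pseudogene, SCD among the latter. The shares on the other strand were 18.6% for FDPS, 15.0% for HMGCS1, 14.8% for IDI1 and 6.92% for SREBF1, among others. The same doubt holds for these genes, as the strand setting is not given.

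The 11 later genes take farnesyl diphosphate to squalene and cholesterol. SQLE, the epoxidase that is a slow step of the pathway (ENSG00000104549, chromosome 8, 124998497 to 125022283), had 194, 204 and 192 CPM in YTHDF1 KO, 148, 154 and 148 CPM in siARID1A, 189.8, 210.0 and 200.2 CPM in the combined group and 172, 190.0 and 191 CPM in WT. The 3 siARID1A libraries were below the other 9. SQLE fell in siARID1A against WT (-0.30, SE 0.0541, adjusted p = 0.000695) and rose in the combined group over siARID1A (0.42, SE 0.0458, adjusted p = 1.95e-05), and its interaction was 0.32, adjusted p = 0.018. The call of the interaction did not hold without YTHDF1 KO replicates 1 or 3 or combined replicate 2, and its adjusted p ran from 0.00648 to 0.0638 over the alternatives.

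DHCR7 (ENSG00000172893, chromosome 11, 71428193 to 71452868), the reductase of the last step, had 152, 152 and 149.6 CPM in YTHDF1 KO, 108, 108 and 104 CPM in siARID1A, 122, 146 and 133 CPM in the combined group and 184, 165 and 165 CPM in WT. The groups did not overlap, from siARID1A through the combined group and YTHDF1 KO up to WT. It fell in siARID1A (-0.69, SE 0.0558, adjusted p = 2.45e-08) and in the combined group (-0.36, SE 0.0926, adjusted p = 0.000134), always relative to WT, and was higher in the combined group than in siARID1A (0.32, SE 0.0776, adjusted p = 0.000742). The fall in YTHDF1 KO against WT was small (-0.18, adjusted p = 0.0443). That last call did not hold, among other settings, without YTHDF1 KO replicates 1, 2 or 3, siARID1A replicates 1 or 2, combined replicate 3 or WT replicate 1 or with RLE factors, library totals, no low-count filter, a fit of the compared groups alone or DESeq2, and its adjusted p ran from 0.0168 to 0.337 over the alternatives.

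TM7SF2 (ENSG00000149809, chromosome 11, 65111845 to 65116384), a sterol reductase that acts after the demethylase, had 14.1, 17.8 and 16.5 CPM in YTHDF1 KO, 13.1, 13.4 and 15.3 CPM in siARID1A, 20.7, 19.3 and 19.7 CPM in the combined group and 7.60, 5.55 and 6.41 CPM in WT. Every WT library was below every other library, and the combined libraries were highest. It rose 2.48-fold in YTHDF1 KO (1.31, SE 0.164, adjusted p = 4.05e-09), 2.14-fold in siARID1A (1.10, SE 0.147, adjusted p = 1.05e-07) and 3.05-fold in the combined group (1.61, SE 0.133, adjusted p = 6.13e-11), always relative to WT. The combined group lay above YTHDF1 KO by 0.30, adjusted p = 0.0628 and above siARID1A by 0.51, SE 0.0756, adjusted p = 0.00122. The interaction was negative (-0.80, SE 0.180, adjusted p = 0.00156). The 3 rises and the interaction share the WT libraries, so a difference of the WT cells cannot be told apart from them.

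LSS, which closes the sterol ring, averaged 33.0 ± 1.57 CPM in YTHDF1 KO, 27.8 ± 2.63 in siARID1A, 27.1 ± 2.62 in the combined group and 42.5 ± 4.98 in WT (SD, n = 3 each). It was lower than WT in YTHDF1 KO (-0.37, adjusted p = 0.00336), siARID1A (-0.61, adjusted p = 1.39e-05) and the combined group (-0.65, adjusted p = 4.44e-06), and lower in the combined group than in YTHDF1 KO (-0.28, adjusted p = 0.0392). The call against YTHDF1 KO did not hold without YTHDF1 KO replicates 1, 2 or 3 or combined replicates 1 or 3 or with library totals, and its adjusted p ran from 0.00585 to 0.213 over the alternatives. The demethylase CYP51A1 averaged 8.85 ± 0.583 CPM in YTHDF1 KO, 8.43 ± 0.682 in siARID1A, 8.84 ± 0.792 in the combined group and 11.2 ± 1.92 in WT. It was called lower in YTHDF1 KO (-0.34, adjusted p = 0.043), siARID1A (-0.41, adjusted p = 0.0146) and the combined group (-0.34, adjusted p = 0.0349). In YTHDF1 KO the call did not hold, among other settings, without YTHDF1 KO replicates 1, 2 or 3, siARID1A replicate 1, combined replicate 3 or WT replicates 1 or 3 or with library totals, no low-count filter, a fit of the compared groups alone or DESeq2, and its adjusted p ran from 0.00773 to 0.263 over the alternatives. In siARID1A it did not hold without siARID1A replicates 1 or 3 or WT replicate 1, and its adjusted p ran from 0.00253 to 0.114 over the alternatives. In the combined group it did not hold without combined replicates 1 or 3 or WT replicates 1 or 3 or with library totals, no low-count filter, a fit of the compared groups alone or DESeq2, and its adjusted p ran from 0.00522 to 0.231 over the alternatives. CYP51A1 shares 79.4% of its exon bases with a second annotated gene on the same strand, and the strand and overlap settings of the counting are not given in the sources used here.

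MSMO1, which oxidises methyl groups of sterols after the demethylase, rose against WT in YTHDF1 KO (0.37, adjusted p = 0.00152) and in the combined group (0.50, adjusted p = 4.86e-05). It was also higher in the combined group than in siARID1A (0.43, adjusted p = 0.000496), and lay at 0.072, adjusted p = 0.548 in siARID1A against WT. The dehydrogenase NSDHL and the isomerase EBP fell in siARID1A against WT (-0.39, adjusted p = 0.00079, and -0.69, adjusted p = 0.000219). NSDHL was higher in the combined group than in siARID1A (0.33, adjusted p = 0.00445), and EBP was lower in the combined group than in WT (-0.45, adjusted p = 0.00644). The EBP call against WT did not hold without WT replicate 1, and its adjusted p ran from 0.000143 to 0.0508 over the alternatives. HSD17B7, a ketoreductase with 2 named pseudogenes, rose in the combined group against WT (0.37, adjusted p = 0.00452). The squalene synthase FDFT1 was called in no comparison.

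SC5D, a sterol desaturase, took another course, with 39.5, 36.8 and 38.0 CPM in YTHDF1 KO, 55.4, 47.4 and 62.8 CPM in siARID1A, 36.8, 38.8 and 39.0 CPM in the combined group and 43.8, 46.0 and 51.8 CPM in WT. It was lower than WT in YTHDF1 KO (-0.31, adjusted p = 0.0074) and in the combined group (-0.30, adjusted p = 0.00632), and lower in the combined group than in siARID1A (-0.53, adjusted p = 3.72e-05). The first of these did not hold with library totals, and its adjusted p ran from 0.00322 to 0.0732 over the alternatives. The second did not hold with library totals, and its adjusted p ran from 0.00233 to 0.148 over the alternatives. In siARID1A it was called higher than WT (0.23, adjusted p = 0.0393), although the groups overlapped. That rise did not hold without YTHDF1 KO replicates 1 or 3, siARID1A replicates 1 or 3, combined replicate 2 or WT replicates 1 or 2 or with scaling without chromosomes 2 and 9 or a fit of the compared groups alone, and its adjusted p ran from 0.00479 to 0.3 over the alternatives.

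**Figure D4:**
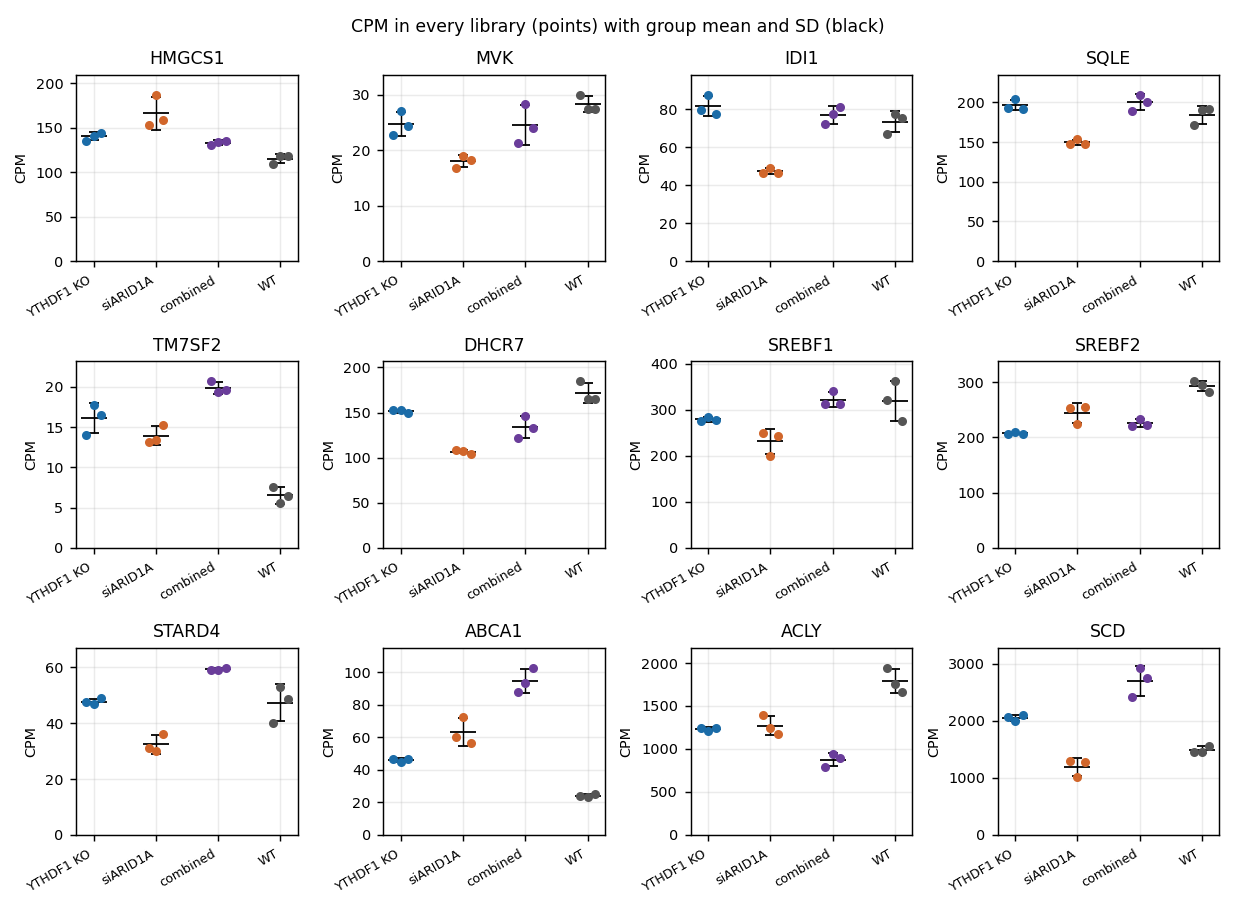
CPM of 12 genes in each of the 12 libraries (points), with the mean and SD of each group of 3 in black and the vertical axis starting at 0. For MVK, IDI1, SQLE and STARD4 the siARID1A points lie below the points of the other groups, and for TM7SF2 and ABCA1 the WT points lie below them.

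Of the 5 genes of SREBP control, both SREBP genes were lower in siARID1A than in WT. In knockout cells, the combined group against YTHDF1 KO, SREBF1 lay at 0.20, adjusted p = 0.102 and SREBF2 at 0.12, adjusted p = 0.203. SREBF1 (ENSG00000072310, chromosome 17, 17810399 to 17837002), whose product favours fatty acid genes, had 275, 286 and 278 CPM in YTHDF1 KO, 250.5, 200.3 and 244 CPM in siARID1A, 312, 342 and 313 CPM in the combined group and 321, 362 and 275 CPM in WT. The siARID1A libraries were lowest and did not overlap the other groups, while WT overlapped both YTHDF1 KO and the combined group. It fell in siARID1A against WT (-0.47, SE 0.153, adjusted p = 0.00014), rose in the combined group over siARID1A (0.48, SE 0.110, adjusted p = 0.000135) and lay at 0.012, adjusted p = 0.922 in the combined group against WT. SREBF2 (ENSG00000198911, chromosome 22, 41833079 to 41907308), whose product favours sterol genes and whose promoter held both motifs above, had 206, 209 and 206 CPM in YTHDF1 KO, 254, 224 and 255 CPM in siARID1A, 220.1, 233 and 223 CPM in the combined group and 301, 296 and 283 CPM in WT. All WT libraries were above all others and the YTHDF1 KO libraries were the lowest. SREBF2 fell against WT in YTHDF1 KO (-0.50, SE 0.0283, adjusted p = 1.07e-06), siARID1A (-0.26, SE 0.0665, adjusted p = 0.0022) and the combined group (-0.38, SE 0.0377, adjusted p = 3.56e-05). Its interaction was positive (0.39, SE 0.0717, adjusted p = 0.00506).

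INSIG1 and INSIG2, which hold the SREBP complex back, differed from each other. INSIG2 (ENSG00000125629, chromosome 2, 118088452 to 118110997) had 11.4, 12.7 and 12.4 CPM in YTHDF1 KO, 19.9, 23.5 and 24.6 CPM in siARID1A, 14.5, 12.9 and 15.8 CPM in the combined group and 17.9, 16.9 and 20.04 CPM in WT. Both groups with the knockout were below WT, and the lowest siARID1A library lay within the range of WT. INSIG2 fell in YTHDF1 KO against WT (-0.59, SE 0.0852, adjusted p = 0.000101) and in the combined group against siARID1A (-0.65, SE 0.125, adjusted p = 3.06e-05). It also fell in the combined group against WT (-0.34, adjusted p = 0.0102). That call did not hold without combined replicate 2 or WT replicate 3 or with library totals, and its adjusted p ran from 0.00462 to 0.13 over the alternatives. In siARID1A against WT it was called higher (0.31, adjusted p = 0.0209). This rise did not hold without siARID1A replicates 2 or 3 or WT replicates 1 or 2, and its adjusted p ran from 0.00814 to 0.114 over the alternatives. INSIG2 lies on chromosome 2, whose 1231 tested genes had a median log2 fold change of -0.41 in YTHDF1 KO against WT, -0.42 in the combined group against WT and -0.42 in the combined group against siARID1A. Genes outside chromosomes 2 and 9 had medians of 0.022, 0.029 and 0.036 in the same comparisons. The difference of INSIG2 from the median of its chromosome was -0.19 in YTHDF1 KO against WT, 0.073 in the combined group against WT and -0.23 in the combined group against siARID1A, so that it lay above that median in the combined group against WT. The part of that shift in the INSIG2 falls was not tested.

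INSIG1, itself an SREBP target, stayed within a narrow band, with 52.5 ± 1.79 CPM in YTHDF1 KO, 56.6 ± 4.36 in siARID1A, 60.6 ± 2.22 in the combined group and 53.6 ± 2.74 in WT (SD, n = 3 each). It was called higher in the combined group against WT (0.18, adjusted p = 0.0484) and against YTHDF1 KO (0.21, adjusted p = 0.0423). The call against WT did not hold without YTHDF1 KO replicates 1, 2 or 3, siARID1A replicate 3, combined replicates 1, 2 or 3 or WT replicates 1 or 3 or with no low-count filter, scaling without chromosomes 2 and 9 or a fit of the compared groups alone, and its adjusted p ran from 0.00251 to 0.166 over the alternatives. The call against YTHDF1 KO did not hold without YTHDF1 KO replicates 1, 2 or 3 or combined replicates 1, 2 or 3 or with no low-count filter, and its adjusted p ran from 0.00765 to 0.155 over the alternatives. SCAP, the SREBP escort, was called in no comparison, with log2 fold changes from -0.079 to -0.03 in the 5 pairwise comparisons.

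Both transport genes were highest in the combined group. STARD4 (ENSG00000164211, chromosome 5, 111496033 to 111512590), which carries sterol between membranes and is an SREBP target, had 47.4, 47.0 and 48.9 CPM in YTHDF1 KO, 31.2, 29.9 and 36.2 CPM in siARID1A, 59.1, 59.2 and 59.7 CPM in the combined group and 40.2, 53.2 and 48.7 CPM in WT. The siARID1A libraries were below all others and the combined libraries above all others. STARD4 fell in siARID1A against WT (-0.55, SE 0.145, adjusted p = 2.33e-05) and rose in the combined group against YTHDF1 KO (0.31, SE 0.0185, adjusted p = 0.0112) and against siARID1A (0.87, SE 0.0827, adjusted p = 2.62e-08). STARD4 thus moved in opposite directions with siARID1A in the 2 backgrounds, and the interaction was 0.86, SE 0.146, adjusted p = 2.65e-05.

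ABCA1 (ENSG00000165029, chromosome 9, 104781002 to 104928237), the exporter of cholesterol to apolipoprotein A-I and an LXR target, had 46.7, 44.9 and 46.6 CPM in YTHDF1 KO, 60.3, 72.7 and 56.3 CPM in siARID1A, 87.8, 93.6 and 102 CPM in the combined group and 24.0, 23.1 and 24.97 CPM in WT. The groups did not overlap, with WT lowest, then YTHDF1 KO, then siARID1A, then the combined group. It rose 1.92-fold in YTHDF1 KO (0.94, SE 0.0374, adjusted p = 2.92e-09), 2.63-fold in siARID1A (1.39, SE 0.115, adjusted p = 4.04e-12) and 3.94-fold in the combined group (1.98, SE 0.0719, adjusted p = 1.65e-15), always relative to WT. The combined group was also above YTHDF1 KO (1.04, SE 0.0670, adjusted p = 1.59e-09) and siARID1A (0.59, SE 0.127, adjusted p = 3.97e-06). ABCA1 lies on chromosome 9, whose 712 tested genes had medians of -0.36, -0.41 and -0.38 in these 3 comparisons with WT, so the gene moved against its chromosome. The interaction was -0.35, SE 0.133, adjusted p = 0.0445, and chromosome 9 had a median of 0.39 in it. That call did not hold, among other settings, without YTHDF1 KO replicates 1, 2 or 3, siARID1A replicate 2, combined replicates 1 or 2 or WT replicate 1 or with scaling without chromosomes 2 and 9, and its adjusted p ran from 0.0152 to 0.174 over the alternatives.

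The 4 fatty acid genes split between ACLY and SCD. ACLY (ENSG00000131473, chromosome 17, 41866908 to 41930542) had 1248, 1210.3 and 1240.1 CPM in YTHDF1 KO, 1395, 1242 and 1173 CPM in siARID1A, 788, 936 and 897 CPM in the combined group and 1939, 1759.8 and 1665 CPM in WT. All WT libraries were above all others and the combined libraries were lowest. It fell in YTHDF1 KO (-0.54, SE 0.0656, adjusted p = 1.13e-05), siARID1A (-0.49, SE 0.0975, adjusted p = 3.22e-05) and the combined group (-1.03, SE 0.0985, adjusted p = 2.00e-10) against WT, where it stood at 48.9% of WT. The combined group was below YTHDF1 KO (-0.50, SE 0.0760, adjusted p = 9.21e-05) and below siARID1A (-0.54, SE 0.105, adjusted p = 1.35e-05) by similar amounts. SCD (ENSG00000099194, chromosome 10, 100347124 to 100364834) had 2058, 1996 and 2100.4 CPM in YTHDF1 KO, 1287, 1005 and 1279.8 CPM in siARID1A, 2415, 2922 and 2749 CPM in the combined group and 1456, 1459 and 1565 CPM in WT. No group overlapped another, with siARID1A lowest, then WT, YTHDF1 KO and the combined group. SCD rose in YTHDF1 KO (0.46, SE 0.0403, adjusted p = 0.000229) and in the combined group (0.85, SE 0.0880, adjusted p = 2.50e-08) and fell in siARID1A (-0.33, SE 0.122, adjusted p = 0.00495), always relative to WT. It was 2.26-fold higher in the combined group than in siARID1A (1.18, SE 0.143, adjusted p = 1.82e-10), higher in the combined group than in YTHDF1 KO (0.39, SE 0.0839, adjusted p = 0.00231), and its interaction was 0.72, SE 0.148, adjusted p = 0.000264.

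ACACA averaged 179.7 ± 10.7 CPM in YTHDF1 KO, 165 ± 8.27 in siARID1A, 159.8 ± 26.8 in the combined group and 206 ± 11.9 in WT. It was lower than WT in siARID1A (-0.32, adjusted p = 0.00575) and in the combined group (-0.36, adjusted p = 0.00171). FASN averaged 928 ± 40.8 CPM in YTHDF1 KO, 735 ± 66.9 in siARID1A, 758 ± 70.0 in the combined group and 940.1 ± 136 in WT (SD, n = 3 each). It fell against WT in siARID1A (-0.36, adjusted p = 0.0037) and in the combined group (-0.31, adjusted p = 0.00831), and in the combined group against YTHDF1 KO (-0.29, adjusted p = 0.0269), with 1 WT library below the highest libraries of siARID1A and of the combined group. The call in the combined group against WT did not hold without combined replicate 1 or with library totals, and its adjusted p ran from 0.000122 to 0.132 over the alternatives. That against YTHDF1 KO did not hold without YTHDF1 KO replicates 1, 2 or 3 or combined replicate 1 or with library totals, and its adjusted p ran from 0.000335 to 0.16 over the alternatives.

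Neighbouring lipid genes outside the 29 were taken from 2 lists. Of 15 genes of fatty acid elongation, desaturation, activation and use, 5 rose and 7 fell in YTHDF1 KO, 3 and 6 in siARID1A, and 6 and 7 in the combined group, always relative to WT, with medians of -0.15, -0.031 and -0.13. Called either way were 80.0%, 60.0% and 86.7% of them, against 40.4%, 45.2% and 51.5% of all genes tested. The phosphatidate phosphatase LPIN1 fell in all 3, with log2 fold changes of -0.91, -0.56 and -1.58, to 23.7 ± 0.508 CPM in the combined group, against 70.8 ± 4.50 CPM in WT. ACSL4, which activates arachidonate, had -0.65, -0.60 and -0.74, all called. The elongation gene ELOVL1 went the other way and rose in all 3, with 0.57, 0.52 and 0.53, all called. Of 14 genes of sterol sensing, transport and LXR signalling, 5 rose and 2 fell in YTHDF1 KO, 5 and 2 in siARID1A, and 8 and 3 in the combined group, with medians of 0.14, 0.042 and 0.22. Their shares called were 50%, 50% and 78.6%, beside the same background. NR1H3, which encodes LXR alpha, rose most in siARID1A (1.49, SE 0.176, adjusted p = 7.41e-10), to 24.0 ± 1.02 CPM, against 8.55 ± 1.88 CPM in WT.

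NR1H3 also rose in YTHDF1 KO (0.53, adjusted p = 0.00142) and in the combined group (1.02, adjusted p = 2.03e-07) against WT, and its interaction was negative (-0.997, SE 0.202, adjusted p = 0.000202). The sterol exporter ABCG1, another LXR target, rose in siARID1A (0.90, adjusted p = 0.000645) and in the combined group (1.07, adjusted p = 6.66e-05), and lay at 0.18, adjusted p = 0.511 in YTHDF1 KO. The phospholipid remodelling enzyme LPCAT3, also an LXR target, rose in YTHDF1 KO (0.89, adjusted p = 2.78e-08) and in the combined group (1.18, adjusted p = 1.29e-10) and lay at 0.028, adjusted p = 0.846 in siARID1A. Not all LXR genes of the list rose. MYLIP, a ubiquitin ligase and LXR target that was picked for mention after its values were seen, was called in no comparison and lay at -0.33, adjusted p = 0.129 in YTHDF1 KO, -0.15, adjusted p = 0.503 in siARID1A and -0.31, adjusted p = 0.135 in the combined group. NR1H2, which encodes LXR beta and was picked in the same way, rose in YTHDF1 KO (0.37, adjusted p = 5.59e-05) and in the combined group (0.20, adjusted p = 0.0132) and fell in siARID1A (-0.18, adjusted p = 0.0279). The NR1H2 rise in the combined group did not hold without combined replicate 2 or with scaling without chromosomes 2 and 9. Its fall in siARID1A did not hold without siARID1A replicates 1 or 3 or WT replicates 1 or 3 or with RLE factors, library totals, no low-count filter or a fit of the compared groups alone. NPC1, which moves cholesterol out of lysosomes, rose in siARID1A against WT (1.01, adjusted p = 1.29e-08) and was lower in the combined group than in siARID1A (-0.68, adjusted p = 5.07e-06). NPC2, of the same list, fell against WT in YTHDF1 KO (-0.77, adjusted p = 3.24e-08) and in the combined group (-0.59, adjusted p = 1.30e-06). In siARID1A against WT NPC2 lay at -0.14, adjusted p = 0.162. In the combined group against YTHDF1 KO, 2 of the 15 fatty acid genes rose and 2 fell, and 6 of the 14 sterol genes rose and 1 fell. The shares were 13.3% each way in the fatty acid list and 42.9% higher and 7.14% lower in the sterol list, against 12.5% higher and 10.9% lower over all genes tested.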

How the data were processed

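RNA from A549 cells was sequenced in 12 libraries, 3 in each of 4 groups that were taken from the genotype and title labels. The authors deposited whole-number read counts per Ensembl gene. Per the submitters' processing notes, the build was GRCh38 and the tools were featureCounts 2.0.1, edgeR 3.32.1, STAR 2.7.0d and Trim Galore 0.6.6; the strand setting is not given in the sources used here. Positions and exon lengths come from GENCODE 29, and promoters from RefSeq.

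The counts were tested in R 4.3.3 with edgeR 4.0.16 (filterByExpr, TMM scaling, robust quasi-likelihood fit of all 12 libraries with 1 term per group). The filter kept 18524 genes and left out 42093, and p-values were Benjamini-Hochberg adjusted over those tested. The SE of a log2 fold change comes from the spread of log2 CPM (prior count 2) between replicates. The script was tested on simulated data.

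All 29 genes are named. Full statistics go to called genes, and of 2 other lipid lists up to 3 called genes per comparison with the largest change may be named. The rule for the 29 genes uses no measured value, but it and the lists were chosen with earlier results of these data known. Alternatives were DESeq2 1.42.0, RLE factors, library totals, no low-count filter, the compared groups alone, a replicate block, scaling without chromosomes 2 and 9, and leaving out each library. The level of 1 marker gene is not reported here.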

Additional observations from a re-analysis of the deposited data

Results flagged for a closer look

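For 11 of the 29 genes the change with siARID1A differed between knockout and unmodified cells by the interaction test of edgeR, at an adjusted p under 0.05, where 17.1% of all genes tested were called (8.87% positive and 8.22% negative). The interaction is the log2 fold change of the combined group against YTHDF1 KO minus that of siARID1A against WT. It was positive for STARD4 (0.86), SCD (0.72), SREBF1 (0.67), MVK (0.65), IDI1 (0.55), DHCR7 (0.50), SREBF2 (0.39) and SQLE (0.32). It was negative for TM7SF2 (-0.80), HMGCS1 (-0.60) and ABCA1 (-0.35). STARD4 and SCD were the genes among these that fell with siARID1A in unmodified cells and rose with it in knockout cells, each by a called difference.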

How the results depend on the processing

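Of 87 calls of a gene in a comparison, 67 held in every alternative, 20 were lost in at least 1 and none changed sign. With library totals in place of TMM scaling, YTHDF1 KO against WT gave 8 genes higher and 4 lower, combined against WT gave 6 lower and combined against YTHDF1 KO gave 1 lower. Leaving out 1 library at a time gave 10 to 15 calls in YTHDF1 KO against WT (5 to 6 higher, 5 to 9 lower), 18 to 22 in siARID1A against WT (3 to 6 higher, 15 to 16 lower), 15 to 20 in combined against WT (7 to 9 higher, 8 to 11 lower), 4 to 10 in combined against YTHDF1 KO (3 to 6 higher, 1 to 4 lower), 16 to 18 in combined against siARID1A (12 to 13 higher, 4 to 5 lower) and 9 to 14 in the interaction (7 to 11 positive, 2 to 3 negative). The cause was not tested. With library totals the share of called genes that were higher was 61.2% over all genes in YTHDF1 KO against WT, against 48.5% with TMM.

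Same-numbered libraries did not deviate together (correlations from -0.042 to 0.033 over 18 pairs), so no pairing by number was detected. A weak pairing could be missed, because each group mean rests on 3 libraries. With the replicate number as a block, YTHDF1 KO against WT gave 10 calls, siARID1A against WT 21, combined against WT 19, combined against YTHDF1 KO 7, combined against siARID1A 17 and the interaction 10. The block ended 3 calls, those of CYP51A1 (adjusted p = 0.0587) and DHCR7 (adjusted p = 0.0567) in YTHDF1 KO against WT and of ABCA1 in the interaction (adjusted p = 0.0584), all from edgeR, and changed no other call of the 87. Of the 40 calls of named genes outside the 29, which leave out ELOVL1 and NPC2, 36 held in every alternative. A size of 3 libraries per group limits the precision.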
